A study of Homo sapiens with 12 samples.

Results

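Interferon-stimulated genes were followed in SW872, a human liposarcoma cell line, expressing an oncogenic fusion of a Hippo pathway co-activator. The set held 41 genes taken by symbol from a table of read counts for 58735 gene IDs, and each symbol matched a single row. All 41 passed the filter on low counts, which asked for 5 or more on average across 12 libraries, and were among the 18415 genes tested. The cells stably expressed either TAZ-CAMTA1 (TC), the fusion of TAZ to the transcription factor CAMTA1, or YAP-TFE3 (YT), the fusion of YAP to the transcription factor TFE3. Each line then received a non-targeting hairpin (shNT), or one directed at YEATS2 (shYEATS2) or at ZZZ3 (shZZZ3), both subunits of the ATAC histone acetyltransferase complex. That gave 6 groups of 2 libraries, so all groups, the controls included, carried a fusion and a hairpin. The lines were pools of cells selected with drugs after retroviral delivery of the fusion and lentiviral delivery of the hairpin. The labels do not say which hairpin sequence of each gene was used, and they list no interferon treatment. The counts are compared as fitted log2 fold changes from edgeR, where called means a Benjamini-Hochberg adjusted p under 0.05 over all genes tested and ± is 1 SE. P-values measure only the spread between these libraries, which a figure legend of the study calls biological duplicates. The labels do not say whether the 2 of a group came from separate cultures. The study's methods give separate transduction and selection for the triplicates of its sequencing work, without naming the knock-down libraries.

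Interferons are secreted proteins that cells release when sensors detect foreign nucleic acid. Type I interferon binds the receptor IFNAR1/IFNAR2, the kinases JAK1 and TYK2 are activated, and STAT2 and IRF9 take part in the complex ISGF3, which binds the interferon-stimulated response element (ISRE) in the promoters of its targets. Interferon gamma instead signals through IFNGR1/IFNGR2 to the gamma-activated site (GAS). The targets include RNA sensors, the IFIT and OAS families, GTPases such as MX1, and the ubiquitin-like modifier ISG15, which act against viruses. Tumor cell lines can hold a low, constant level of these transcripts without added interferon.

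The targeted genes were checked first. YEATS2 stood at 45.5 and 35.1 CPM (counts scaled to a common library size) in TC shYEATS2 against 113 and 123 in TC shNT, and at 33.9 and 38.5 in YT shYEATS2 against 115 and 117 in YT shNT. Its log2 fold changes were -1.54 ± 0.18 (SE, adjusted p = 0.0138) and -1.68 ± 0.18 (adjusted p = 1.04e-04). The first missed the threshold without YT shNT replicate 1 or replicate 2, with adjusted p up to 0.150. ZZZ3 was less clear. It stood at 21.9 and 22.7 CPM in TC shZZZ3 against 25.6 and 60.4 in TC shNT (log2 fold change -0.94 ± 0.42, adjusted p = 0.450), and at 12.6 and 29.6 in YT shZZZ3 against 71.2 and 49.1 in YT shNT (-1.51 ± 0.43, adjusted p = 0.0453). The YT call ended under 3 of the 9 other settings and without any of 9 libraries in turn, with adjusted p up to 0.296 in the latter, and the log2 fold change was -2.25 without YT shZZZ3 replicate 2. ZZZ3 also read 31.4 and 30.7 CPM in YT shYEATS2 (-0.95 ± 0.42, adjusted p = 0.130).

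Library totals ran from 17451893 to 29294805 counts, and 3.66 to 6.17% of counts were mitochondrial. In TC shNT and YT shZZZ3 the gap between the 2 libraries of the group followed base composition. Over the 41 genes, the log2 ratio of replicate 1 to replicate 2 had a Pearson r of 0.875 with exon GC content in TC shNT and 0.779 in YT shZZZ3, and over the 13222 genes averaging 50 counts or more r was 0.813 and 0.726. In YT shNT, the control of every YT knock-down, the trend ran the other way, with r of -0.614 and -0.304. In TC shZZZ3 r was 0.439 and 0.245. In TC shYEATS2 it was 0.0818 over the 41 genes and 0.288 over the 13222, and in YT shYEATS2 -0.128 and -0.374. All points in a panel share 1 pair of libraries, so r is a description. AT-rich SAMD9, for instance, read 6.79 and 22.4 CPM in TC shNT, and GC-rich ISG15 read 20.5 and 10.4. TC shYEATS2 replicate 1 stood apart from replicate 2 in another way, with 19.7 against 3.26 CPM of OASL, 11.3 against 2.76 of RSAD2, 6.87 against 1.76 of CMPK2 and 11.3 against 3.67 of IFI27. Of the 41 genes, 7 were at their highest in that library, a count given without the share of all genes.

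**Figure D1:**
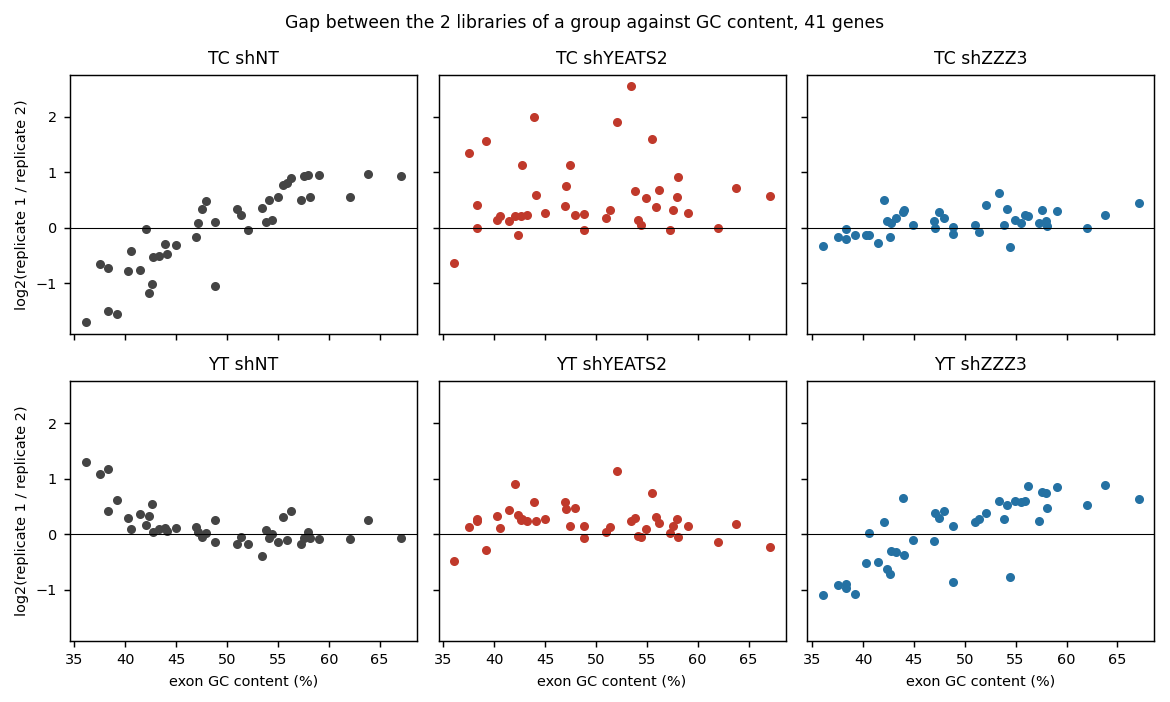
Each point is 1 of the 41 genes. The x axis is its exon GC content in percent and the y axis is the log2 ratio of replicate 1 to replicate 2, with a panel for each group. Points climb with GC content in TC shNT and YT shZZZ3 (r = 0.875 and 0.779) and fall with it in YT shNT (r = -0.614). In TC shYEATS2 (r = 0.0818) a few genes lie far above 0 at any GC content.

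The cells carried mesenchymal markers, with vimentin at 696 to 2152 CPM and fibronectin (FN1) at 2577 to 10540.0, and all 8 such markers were tested. Vimentin was called higher in YT shYEATS2, at 1949 and 1948 CPM against 709 and 696 in YT shNT, as were THY1 and COL3A1, while PDGFRB was called lower. In YT shZZZ3 VIM, THY1 and COL1A1 were called higher and FN1 lower, and in TC shZZZ3 COL3A1 and FN1 lower. Between the control groups VIM, COL1A1, COL1A2 and COL3A1 were called lower in YT. Of 7 adipocyte markers, 3 were tested, LPL at 73.3 to 286 CPM, PPARG at 36.8 to 109 and PLIN1 at 0.284 to 1.55, while LEP was at 0 in every library and FABP4 and ADIPOQ at no more than 0.296. Of 10 leukocyte markers, 4 were tested and their sum over the 10 was 1.91 to 7.87 CPM. PTPRC, which marks leukocytes, did not exceed 0.158 CPM, and MS4A1 was at 0. The leukocyte sum was highest in the YT shYEATS2 libraries (7.87 and 7.85 CPM against 2.48 and 2.65 in YT shNT), where CD14 and LYZ were called higher and ITGAM lower. The 6 endothelial markers summed to 270.0 CPM in TC shYEATS2 replicate 2, 59.4 in replicate 1, 155 and 154 in YT shZZZ3, and 43.4 to 101 in the other libraries. The 6 epithelial markers, mostly KRT8 and KRT18, summed to 289 to 918 CPM, with 918 in TC shYEATS2 replicate 1 and 292 in replicate 2. KRT8 was called lower in YT shYEATS2, PECAM1, CDH5 and CLDN5 higher in YT shZZZ3, and CLDN5 higher in YT shYEATS2. TEK was called lower in TC shZZZ3, and between the control groups TEK was lower and ITGAM higher in YT. The part of these differences in the results on interferon-stimulated genes was not tested.

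None of the interferon genes listed rose above the floor of 3 counts per library. IFNA1 was the only alpha interferon on the list, and the others of that family were not looked up. Of 9 interferon genes listed, IFNA1, IFNK, IFNW1, IFNG, IFNL1, IFNL2 and IFNL3 were at 0 in all 12 libraries, and IFNB1 and IFNE reached at most 2 counts. A count of 0 allows up to 3 counts in a library. IFNB1 and the rest of the 9 were therefore not detectable at this depth, and none was tested. The receptor for lambda interferon, IFNLR1, had a single count in 1 library. The receptors of the other types were present, with IFNAR1 at 52.1 to 113 CPM, IFNAR2 at 12.6 to 25.1, IFNGR1 at 18.4 to 37.3 and IFNGR2 at 47.0 to 81.8.

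Levels were compared between genes as CPM per kilobase of annotated exon, a measure that is lower for genes whose rare isoforms add exon length. By the mean over the 6 groups, LGALS3BP, a secreted galectin ligand, came first at 343 CPM per kb. IFITM3, which blocks viral fusion at endosomes, followed at 287, BST2 (tetherin), which holds budding virus at the surface, at 199 and the mitochondrial protein IFI6 at 88.9. IFI44L, MX1 and IRF9 came last at 0.271, 0.363 and 0.454. MX2 stood at 15.5 and its neighbour MX1 at 0.363, and in every library MX2 had more CPM than MX1, with 189 to 337 against 4.97 to 7.74. IFI27 changed the most between groups, by 13.1-fold from the lowest group mean (TC shZZZ3, 0.771 CPM per kb) to the highest (YT shNT, 10.1). RSAD2 followed at 9.61-fold, from TC shNT (0.129) to TC shYEATS2 (1.24), a mean that rests on replicate 1, and IFI44L at 4.32-fold. HERC6 and BST2 had the narrowest spans, 1.30-fold and 1.32-fold.

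**Figure D2:**
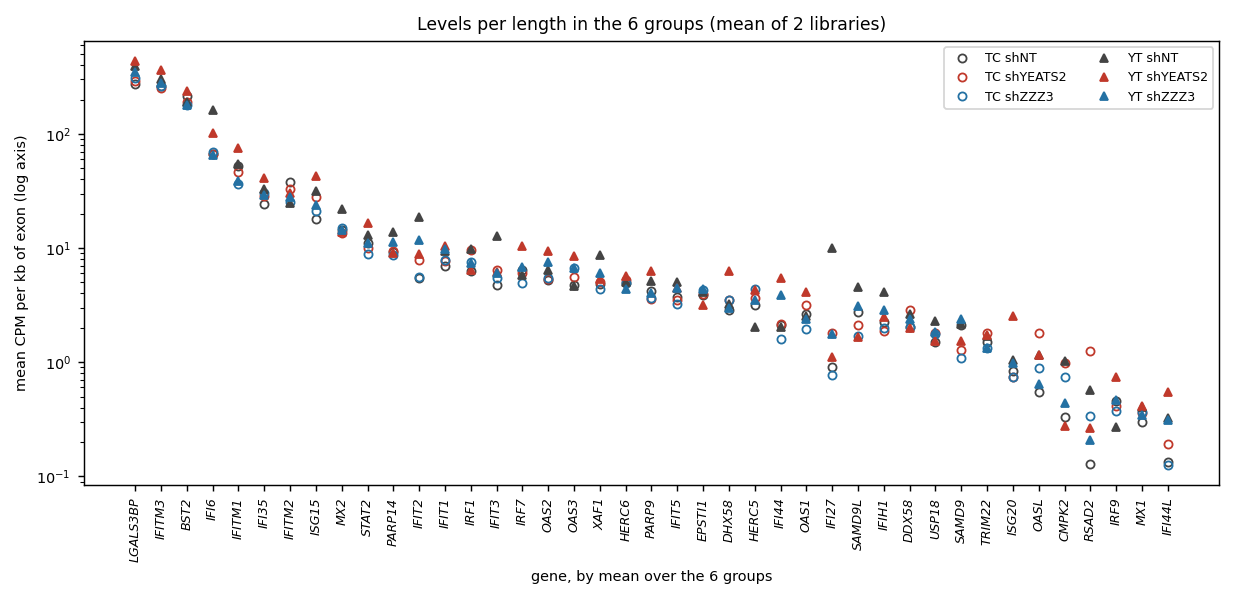
The y axis is the mean of 2 libraries in CPM per kb of exon on a log axis, and the x axis holds the 41 genes in order of their mean over the 6 groups. Open circles are TC groups and filled triangles YT groups, with black for shNT, red for shYEATS2 and blue for shZZZ3. LGALS3BP leads at 343 and IFI44L ends at 0.271, and the YT shNT triangle of IFI27 stands alone at 10.1.

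**Figure D3:**
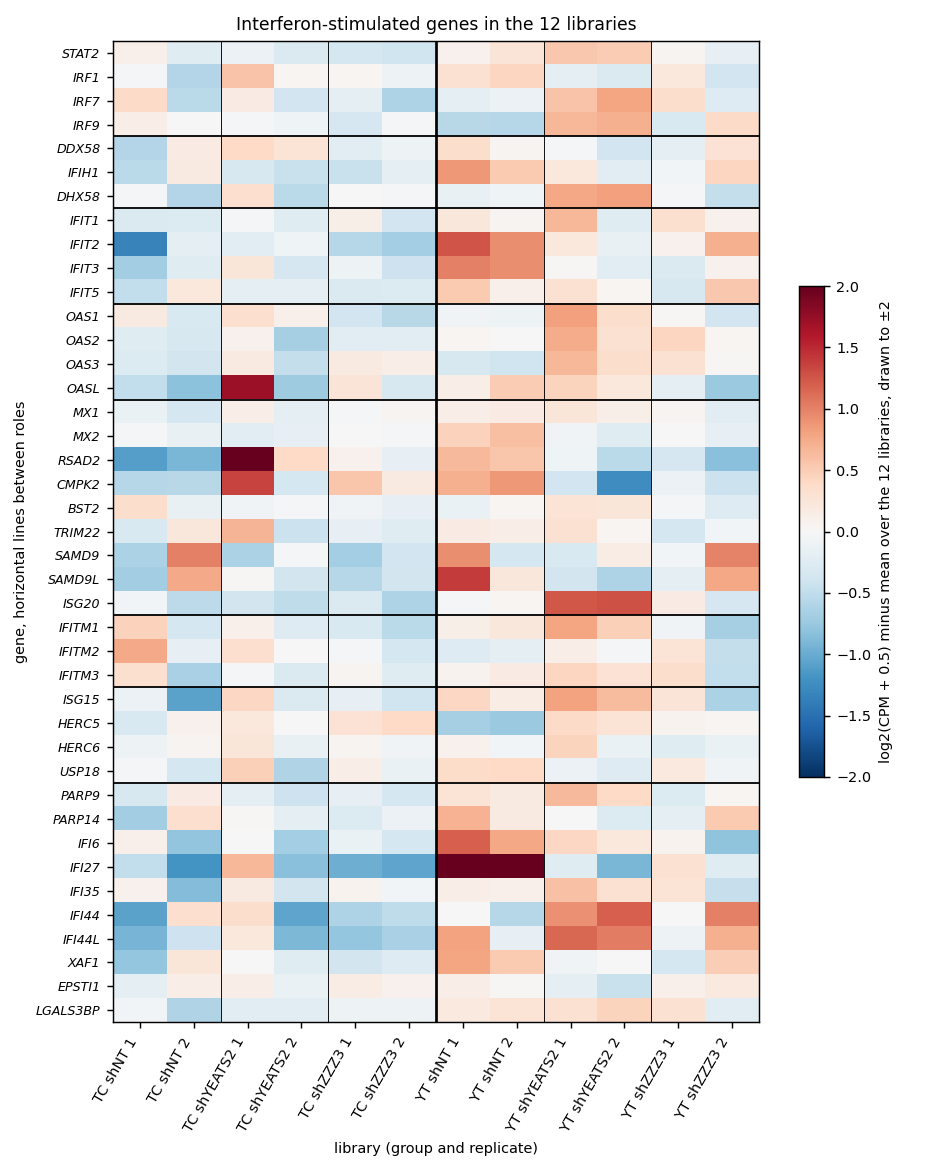
Each row is a gene and each column a library, and the color is log2(CPM + 0.5) minus the gene's mean over the 12 libraries, drawn to ±2. Lines separate the roles and the groups. IFI27 is darkest in both YT shNT libraries (46.5 and 37.2 CPM), RSAD2 and OASL in TC shYEATS2 replicate 1, and ISG20 in both YT shYEATS2 libraries (18.1 and 18.5 CPM).

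Many of the genes lie in clusters. The set was chosen by name and takes in whole families of neighbouring genes, so the clustering is a description of that choice. Of the 41, 20 have another member within 100 kb (GENCODE 44 on hg38). The 4 IFIT genes sit on chromosome 10, OAS1, OAS2 and OAS3 on chromosome 12, the 3 IFITM genes on chromosome 11, MX1 and MX2 on chromosome 21, SAMD9 and SAMD9L on chromosome 7, HERC5 and HERC6 on chromosome 4, IFI44 and IFI44L on chromosome 1, and RSAD2 and CMPK2 on chromosome 2. RSAD2 (chr2:6865557-6898239, plus strand) and CMPK2 (chr2:6840570-6866635, minus strand) overlap at their starts. In all, 19 of the 41 overlap an annotated gene on the other strand, IFIT1, IFIT2 and IFIT3 among them with LIPA. On the same strand 6 overlap an annotated gene: STAT2, IRF9, IFIT2, IFIT3, TRIM22 and IFI6. Reads of those 6 may be shared or lost whatever the strand setting, which was not tested. The library kit keeps the strand, and the setting used in counting was not given in the sources used here. The 3 IFITM genes are near copies of each other, so their separate counts are uncertain.

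The first comparison asked how the lines differed under the control hairpin. In YT shNT, 6 of the 41 genes were called higher than in TC shNT (edgeR, adjusted p under 0.05) and 0 lower: IFI27, RSAD2, IFIT2, IFIT3, IFI6 and MX2. Of all genes tested, 9.23% were called, 5.58% higher and 3.65% lower. Of the 41, 33 had a log2 fold change above 0, and the median was 0.42 against -0.01 over all genes tested.

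IFI27 (chr14:94104836-94116695, plus strand), a small protein of the mitochondrial membrane, read 46.5 and 37.2 CPM in YT shNT and 4.81 and 2.77 in TC shNT, with no overlap, for a log2 fold change of 3.43 ± 0.50 (SE, adjusted p = 0.00160). IFIT2 and IFIT3, of a family that binds RNA, followed. IFIT2 read 90.4 and 71.3 against 14.5 and 32.7 CPM (1.78 ± 0.34, adjusted p = 0.00839), and IFIT3 read 66.3 and 62.9 against 19.99 and 27.8 (1.43 ± 0.26, adjusted p = 0.00551). Their relatives IFIT1 and IFIT5 did not pass, with 45.9 and 40.9 against 32.0 and 32.5 CPM of IFIT1 (0.43 ± 0.28, adjusted p = 0.385). RSAD2 (viperin), which makes a chain-terminating nucleotide, read 3.38 and 3.11 against 0.649 and 0.812 CPM (2.03 ± 0.60, adjusted p = 0.0451), or 64 and 54 counts against 17 and 17. IFI6 read 175 and 131 against 82.0 and 43.9 CPM (1.28 ± 0.35, adjusted p = 0.0444). MX2, a GTPase that restricts retroviruses, read 308 and 337 against 217 and 201 CPM, a small shift with close replicates (0.62 ± 0.16, adjusted p = 0.0302). In each of the 6 the YT shNT libraries lay above both TC shNT libraries. The same held for IFIT1, which was not called, so the separation adds no support to the calls.

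The IFI27 call held without any single library (adjusted p at most 0.0144). IFIT2 and IFIT3 missed the threshold only without YT shNT replicate 1 (adjusted p = 0.0866 and 0.0567), and without TC shNT replicate 2 IFIT2 rose to 2.45. RSAD2 and MX2 missed it without any of the TC shNT, TC shZZZ3, YT shNT or YT shYEATS2 libraries (adjusted p up to 0.187 and 0.224), and IFI6 without 7 of these 8, TC shNT replicate 1 being the exception (up to 0.262). The share of all genes that lost or kept a call without a library is not given here. The losses in this paragraph are therefore a description and not a result about this set.

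With YEATS2 knocked down in YT cells, 10 of the 41 genes were called, 5 higher and 5 lower, beside 20.7% of all genes tested (9.61% higher and 11.1% lower). Higher were IRF9, ISG20, HERC5, DHX58 and OAS3, and lower were IFI27, CMPK2, IFIT2, IFIT3 and MX2. The median log2 fold change of the 41 was 0.14 against -0.01 over all genes, with 24 above 0 and 17 below. Without YT shYEATS2 replicate 1 that median was -0.10. Every YT comparison below shares the 2 YT shNT libraries with the one above.

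IFI27 fell from 46.5 and 37.2 CPM in YT shNT to 5.83 and 3.46 in YT shYEATS2 (log2 fold change -3.14 ± 0.49, adjusted p = 0.00114), inside the 2.77 to 11.3 CPM of the TC libraries. CMPK2, a mitochondrial nucleotide kinase that lies head to head with RSAD2, read 1.71 and 0.723 CPM against 4.22 and 4.77 (-1.80 ± 0.56, adjusted p = 0.0371), from 41 and 14 counts. RSAD2 itself read 1.83 and 1.19 against 3.38 and 3.11 CPM and was not called. IFIT2 fell to 43.1 and 33.7 CPM from 90.4 and 71.3 (-1.07 ± 0.34, adjusted p = 0.0434). IFIT3 fell to 33.5 and 28.4 from 66.3 and 62.9 (-1.06 ± 0.25, adjusted p = 0.0135). MX2 fell to 211 and 189 from 308 and 337 (-0.69 ± 0.16, adjusted p = 0.0103). The libraries of the 2 groups did not overlap in any of the called genes, nor in RSAD2, so lack of overlap did not set the called genes apart. IFIT1, of the same cluster as IFIT2, read 62.4 and 33.2 against 45.9 and 40.9 CPM and did overlap.

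IRF9 (chr14:24161234-24168043, plus strand), the DNA-binding part of ISGF3, rose to 4.75 and 4.90 CPM from 1.74 and 1.73 (1.43 ± 0.31, adjusted p = 0.00627). IRF9 overlaps another gene annotated on the same strand, and its counts may include reads of that gene. Its ISGF3 partner STAT2 read 156 and 152 CPM against 114 and 128 and was not called (0.35 ± 0.18, adjusted p = 0.185), though the groups did not overlap. ISG20, an exonuclease that degrades viral RNA, rose to 18.1 and 18.5 CPM from 7.29 and 7.59 (1.29 ± 0.26, adjusted p = 0.00548). HERC5, the ligase that attaches ISG15 to proteins, rose to 21.4 and 19.7 from 10.1 and 9.49 (1.06 ± 0.21, adjusted p = 0.00472). The replicates of these 3 genes lay close together in YT shYEATS2. DHX58 (LGP2), listed with the RNA sensors, rose to 23.7 and 24.5 CPM from 12.2 and 12.8 (0.95 ± 0.31, adjusted p = 0.0483). OAS3, which makes the messenger that activates RNase L, rose to 170.4 and 138 from 86.0 and 81.5 (0.88 ± 0.22, adjusted p = 0.0171). The other RNA sensors listed were lower without passing, DDX58 (RIG-I) at 22.9 and 18.01 CPM against 30.1 and 24.6 and IFIH1 (MDA5) at 15.1 and 11.1 against 24.2 and 18.8.

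The count was 3 without YT shNT replicate 1 (HERC5, IFI27, MX2), 2 without YT shNT replicate 2 (IFI27, ISG20), 5 without YT shYEATS2 replicate 1 or replicate 2, and 7 to 14 without any of the other 8. IFI27 held in all 12 of these fits (adjusted p at most 0.0265), and the highest adjusted p was 0.0541 for HERC5, 0.0560 for ISG20, 0.0665 for IRF9, 0.0926 for MX2, 0.122 for OAS3, 0.126 for IFIT3, 0.212 for DHX58, 0.239 for CMPK2 and 0.255 for IFIT2. Without YT shYEATS2 replicate 1 the CMPK2 value was -2.49. IFIT2 also missed without either TC shYEATS2 or TC shZZZ3 library, and DHX58 and CMPK2 without either TC shZZZ3 library. Removing the GC trend gave 19 called genes and fitting the 4 libraries of this comparison by themselves gave 28, with all 10 among them in both cases. How many of all genes were called under these settings, or without a library, is not given here. The counts in this paragraph are therefore a description and not a result about this set.

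**Figure D4:**
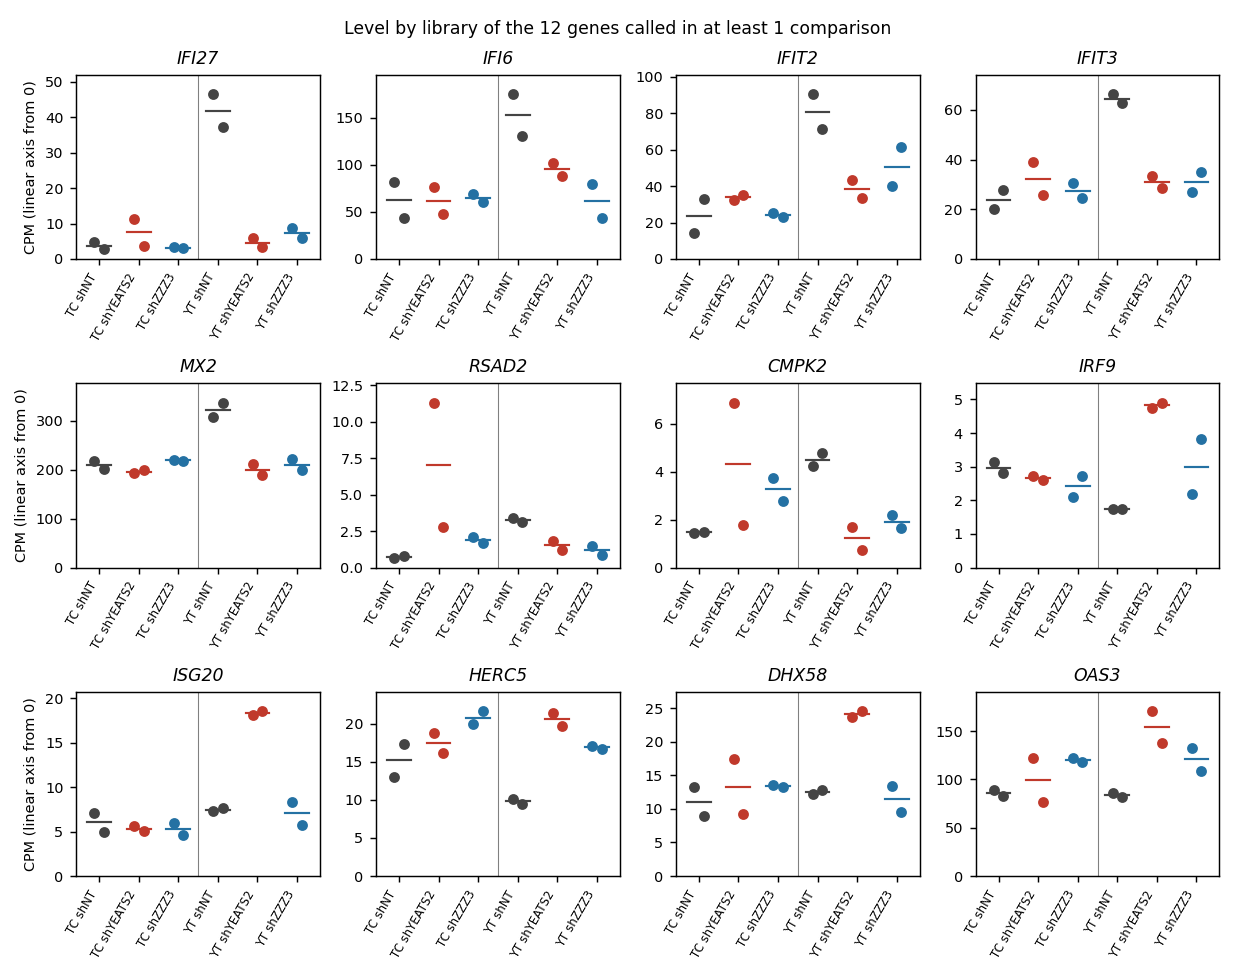
Each panel is 1 of the 12 genes called in at least 1 comparison. Points are libraries, horizontal bars are means of 2, and the y axis is CPM on a linear scale from 0. The YT shNT points of IFI27, IFIT2, IFIT3 and MX2 lie above all other groups, IRF9, ISG20 and DHX58 are highest in YT shYEATS2, and the TC shYEATS2 points of RSAD2 and CMPK2 lie far apart (11.3 and 2.76, 6.87 and 1.76 CPM).

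Promoters of these genes are shown because ISGF3 is known to act through the ISRE. RefSeq promoters on GRCh38.p14 were matched for 32 of the 41, and the 250 bases before the start were searched on both strands. The first promoter listed for each of these genes was used, and any other starts were left out. An ISRE was taken as GAAANNGAAA, 2 GAAA half-sites with 2 bases between them, and was present in 19 of the 32 (59.4%) beside 3.02% of 35116 promoters. A GAS, taken as TTCNNNGAA, was present in 9 of the 32 (28.1%) beside 6.57%. The TEAD motif GGAATG, through which YAP and TAZ reach DNA, was in 6 (18.8%) beside 11.9%, and the E-box CACGTG, which TFE3 can bind, in 3 (9.4%) beside 6.34%. ISRE and GAS letters can overlap. Of the 19 genes with an ISRE match, 6 were called in some comparison, and of the 13 without, 3. The share of all genes called in some comparison is not given here, so these counts are a description. Of the 6 called genes with the largest changes in YT shYEATS2, 5 had an entry and are printed here 5′ to 3′ on the strand of the gene, with ISRE matches in capitals. They lie at chr14:94110486-94110735 (IFI27, plus strand), chr2:6866636-6866885 (CMPK2, minus strand), chr14:24161015-24161264 (IRF9, plus strand), chr15:88638766-88639015 (ISG20, plus strand) and chr4:88456869-88457118 (HERC5, plus strand).
IFI27: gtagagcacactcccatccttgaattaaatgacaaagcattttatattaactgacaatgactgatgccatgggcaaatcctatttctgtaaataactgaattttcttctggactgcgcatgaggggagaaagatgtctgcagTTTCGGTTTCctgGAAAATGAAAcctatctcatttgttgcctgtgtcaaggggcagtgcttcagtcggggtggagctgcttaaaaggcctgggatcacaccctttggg
CMPK2: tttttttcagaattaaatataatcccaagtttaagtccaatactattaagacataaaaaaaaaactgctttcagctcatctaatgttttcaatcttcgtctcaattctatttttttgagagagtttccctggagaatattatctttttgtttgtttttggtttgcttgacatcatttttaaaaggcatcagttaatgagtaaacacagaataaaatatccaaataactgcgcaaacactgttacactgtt
IRF9: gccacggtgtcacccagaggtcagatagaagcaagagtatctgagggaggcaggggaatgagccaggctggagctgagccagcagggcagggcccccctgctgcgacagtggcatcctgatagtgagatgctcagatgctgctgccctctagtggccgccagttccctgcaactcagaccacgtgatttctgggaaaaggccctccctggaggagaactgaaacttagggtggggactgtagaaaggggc
ISG20: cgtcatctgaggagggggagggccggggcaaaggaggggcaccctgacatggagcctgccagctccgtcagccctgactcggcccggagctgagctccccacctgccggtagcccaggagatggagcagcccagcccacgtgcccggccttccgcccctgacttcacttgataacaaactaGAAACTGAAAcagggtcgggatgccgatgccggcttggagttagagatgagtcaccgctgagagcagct
HERC5: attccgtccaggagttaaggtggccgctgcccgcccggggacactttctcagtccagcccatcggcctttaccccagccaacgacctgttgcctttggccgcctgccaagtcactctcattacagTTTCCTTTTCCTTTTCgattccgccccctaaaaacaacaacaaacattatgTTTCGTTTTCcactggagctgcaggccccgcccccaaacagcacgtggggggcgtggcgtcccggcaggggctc

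IFI27, which fell the most, has 2 ISRE matches on opposite strands, whose first letters lie 108 and 95 bases before the start, and a GAS match at 101. HERC5, which rose, has 3 ISRE matches, at 125, 119 and 74, of which the first 2 overlap, and an E-box at 33. ISG20, which rose, has 1 ISRE match at 69 and an E-box at 114. IRF9 has a GAS match at 63, an E-box at 71 and a TEAD match at 196, and no ISRE match. CMPK2 has none of the 4 motifs in this window. Genes that rose and genes that fell thus both held ISRE letters, and both kinds include a gene without them in the window searched. A match is a description of letters and not a measured site.

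With ZZZ3 knocked down in YT cells, 5 of the 41 were called, HERC5 higher and IFI27, IFI6, IFIT3 and MX2 lower, beside 10.0% of all genes (4.40% higher and 5.62% lower). Below 0 were 31 of the 41 log2 fold changes, with a median of -0.21 against 0.01 over all genes. IFI27, IFIT3 and MX2 were called lower and HERC5 higher under both hairpins, which share their YT shNT controls. IFI27 read 8.77 and 5.84 CPM against 46.5 and 37.2 in YT shNT (-2.50 ± 0.47, adjusted p = 0.00680). IFI6 read 79.9 and 43.6 against 175 and 131 (-1.30 ± 0.35, adjusted p = 0.0380). It was not called under shYEATS2, where it read 102 and 88.7. IFIT3 read 26.9 and 34.9 against 66.3 and 62.9 (-1.06 ± 0.25, adjusted p = 0.0226), and MX2 read 222 and 199 against 308 and 337 (-0.61 ± 0.16, adjusted p = 0.0302). HERC5 read 17.03 and 16.7 against 10.1 and 9.49 (0.78 ± 0.21, adjusted p = 0.0368). Each of the 5 had groups that did not overlap, as did IFI6 under shYEATS2 without a call.

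IRF9, ISG20 and DHX58, called higher under shYEATS2, read 2.18 and 3.81, 8.37 and 5.75, and 13.4 and 9.60 CPM under shZZZ3, and none was called. The difference between the hairpins was not tested. The gap between the YT shZZZ3 libraries followed GC content, and with that trend removed 8 of the 41 were called, the 5 among them. The share of all genes called with the trend removed, or without a library, is not given here. Without YT shNT replicate 1 none of the 41 was called, with 5 at an unadjusted p under 0.05, and IFI27 had an adjusted p of 0.0558. Without YT shNT replicate 2 only IFI27 was called, without any TC shZZZ3 or YT shYEATS2 library or YT shZZZ3 replicate 2 the calls were IFI27 and IFIT3, and without YT shZZZ3 replicate 1 they were IFI27, IFI6 and IRF9. The highest adjusted p was 0.150 for IFIT3, 0.224 for IFI6, 0.228 for MX2 and 0.220 for HERC5.

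In TC cells neither hairpin gave a called gene among the 41. For shYEATS2, 0 of 41 were called by edgeR beside 0.0434% of all genes, 4 had an unadjusted p under 0.05 and DESeq2 called 1, RSAD2. For shZZZ3, 0 of 41 were called beside 1.53% of all genes, 2 had an unadjusted p under 0.05 and DESeq2 called 0. The share of all genes that DESeq2 called is not given here for either hairpin. The median log2 fold changes were 0.08 and 0.00 against -0.01 over all genes in both. Without TC shYEATS2 replicate 1 the first median was -0.14.

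RSAD2 came nearest under shYEATS2. It read 11.3 and 2.76 CPM against 0.649 and 0.812 in TC shNT (3.13 ± 0.58, adjusted p = 0.0915, called under 5 of the 9 other settings), so both TC shYEATS2 libraries lay above both controls. Without TC shYEATS2 replicate 1 the log2 fold change was 1.79 (adjusted p = 0.0978), and without replicate 2 it was 3.79 (adjusted p = 0.00173). OASL, an OAS relative without the enzyme activity, read 19.7 and 3.26 against 3.89 and 3.01 CPM (1.71 ± 0.61, adjusted p = 0.684). It read -0.10 without replicate 1 and 2.46 without replicate 2 (adjusted p = 0.0175). CMPK2 read 6.87 and 1.76 against 1.45 and 1.48 CPM (1.51 ± 0.54, adjusted p = 0.664), and 0.23 without replicate 1. IFI27 read 11.3 and 3.67 against 4.81 and 2.77 CPM (0.97), and -0.07 without replicate 1. The OASL, CMPK2 and IFI27 values rested on replicate 1, in which IRF1 (139.7 CPM), TRIM22 (31.0) and USP18 (10.1) were also at their highest of the 12. Under shZZZ3, RSAD2 read 2.11 and 1.71 CPM (1.29 ± 0.61, adjusted p = 0.431) and OAS3 122 and 118 against 88.8 and 82.8 (0.49 ± 0.22, adjusted p = 0.460).

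**Figure D5:**
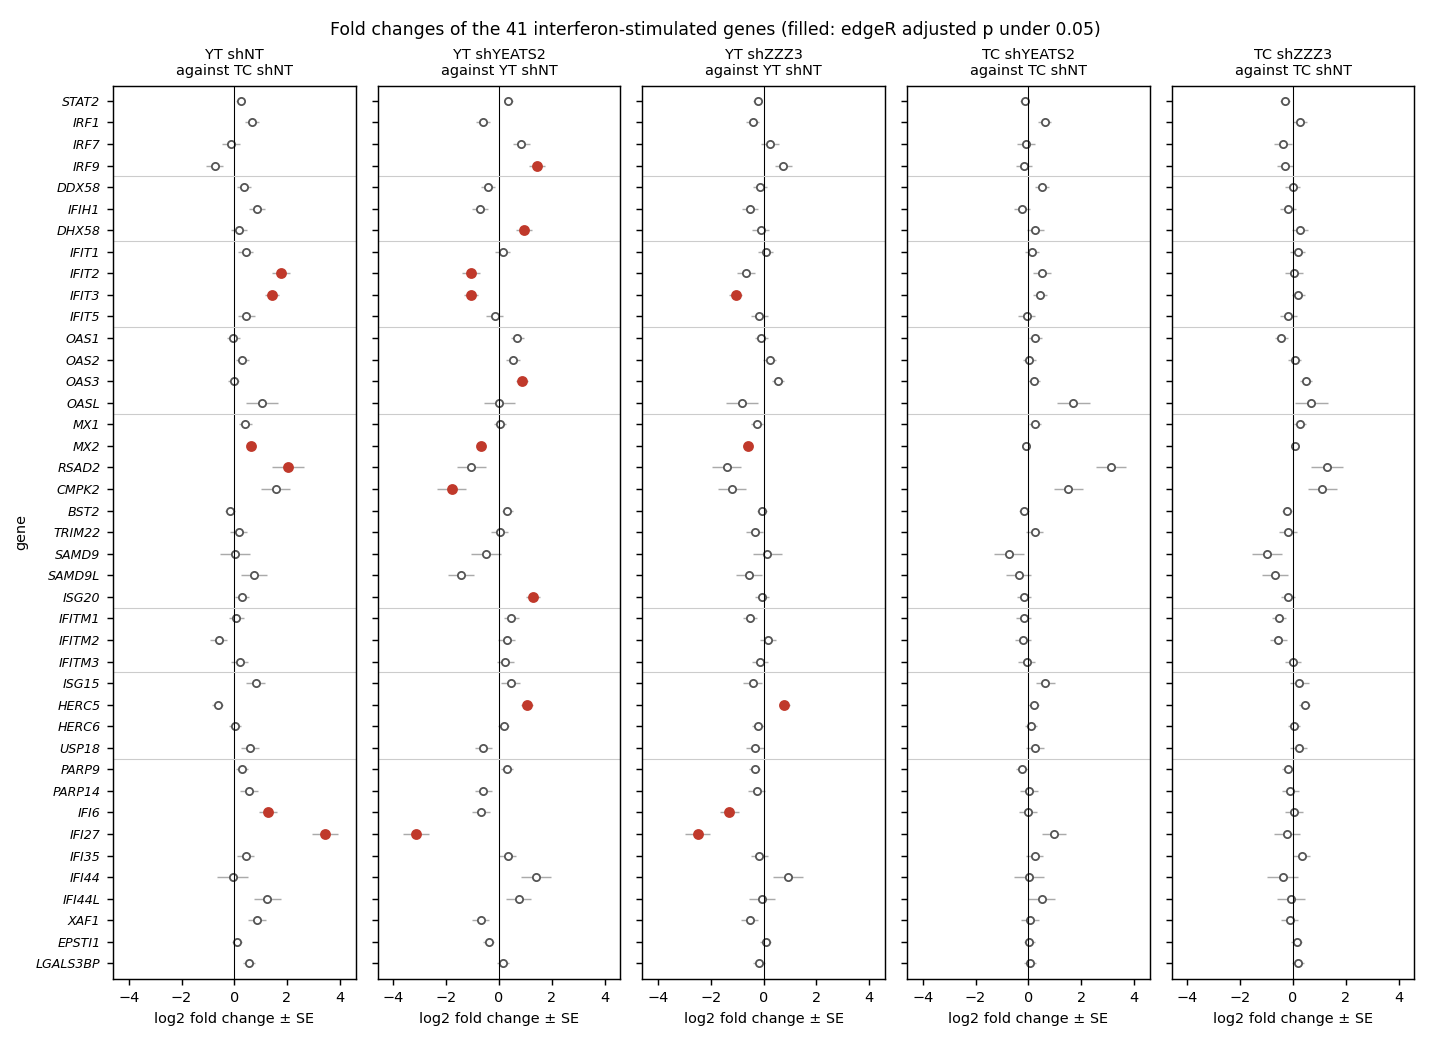
Points are log2 fold changes with bars of 1 SE for the 41 genes in 5 comparisons, ordered by role. Filled red points passed an edgeR adjusted p of 0.05. The panel of YT shNT against TC shNT has 6 filled points, all above 0, that of YT shYEATS2 has 5 on each side, that of YT shZZZ3 has 4 below and 1 above, and the TC panels have none.

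Whether a hairpin acted differently in the 2 lines was tested as the YT change minus the TC change. For shYEATS2, 6 of the 41 differed, IRF9 and ISG20 with a more positive change in YT and RSAD2, IFI27, CMPK2 and IFIT3 with a more negative one, beside 9.37% of all genes (3.53% higher and 5.84% lower). RSAD2 differed by -4.18 ± 0.80 on the log2 scale (adjusted p = 0.00611), with -1.05 in YT and 3.13 in TC. IFI27 differed by -4.11 ± 0.67 (adjusted p = 0.00297) and CMPK2 by -3.32 ± 0.78 (adjusted p = 0.0182). Part of the size came from TC shYEATS2 replicate 1. Without it RSAD2 differed by -2.82 (adjusted p = 0.00691), IFI27 by -3.06 (adjusted p = 0.00739) and CMPK2 by -2.01 (adjusted p = 0.0596). Without TC shYEATS2 replicate 2 RSAD2 differed by -4.82 and CMPK2 by -3.93, and without YT shYEATS2 replicate 1 CMPK2 differed by -3.99. IFIT3 differed by -1.50 ± 0.36 (adjusted p = 0.0230), IRF9 by 1.59 ± 0.43 (adjusted p = 0.0333) and ISG20 by 1.47 ± 0.37 (adjusted p = 0.0299).

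RSAD2 and IFI27 kept this call without any library (adjusted p at most 0.0430 and 0.0273). CMPK2 lost it without TC shYEATS2 replicate 1, either YT shNT library or YT shYEATS2 replicate 2 (up to 0.0939). IFIT3 lost it without TC shNT replicate 1, TC shYEATS2 replicate 1 or any YT shNT or YT shYEATS2 library (up to 0.121). ISG20 lost it without TC shNT replicate 1, TC shYEATS2 replicate 2 or any YT shNT or YT shYEATS2 library (up to 0.105), and IRF9 without any library but TC shNT replicate 2 and the YT shZZZ3 pair (up to 0.126). Without TC shNT replicate 2 the count was 12. For shZZZ3, 0 of 41 differed by edgeR beside 4.32% of all genes, with 7 at an unadjusted p under 0.05, and DESeq2 called 5 (CMPK2, RSAD2, IFIT3, IFI27 and MX2). The shares of all genes called by DESeq2, or without a library, are not given here.

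Genes upstream of the set were next. Of 10 genes listed for the receptors and their signaling, 9 were tested. Only IFNGR1 was called, in YT shYEATS2, where 20.7% of all genes were called. It read 22.4 and 20.8 CPM there against 35.4 and 37.3 in YT shNT (-0.75 ± 0.24, adjusted p = 0.0477). That call ended under 4 of the 9 other settings and without any of 8 libraries, the exceptions being the TC shNT and YT shZZZ3 pairs (adjusted p up to 0.234).

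Of 13 nucleic acid sensing genes, 12 were tested, and in YT shYEATS2 2 were called higher and 1 lower, beside 20.7% of all genes. In the other comparisons below, 10.0% of all genes were called in YT shZZZ3, 9.23% between the controls and 9.37% in the shYEATS2 difference. TLR3, the endosomal receptor for double-stranded RNA, fell to 5.70 and 5.88 CPM from 22.7 and 20.5 (-1.88 ± 0.32, adjusted p = 0.00204), and this held without any library. MYD88, the adaptor of most other Toll-like receptors, rose to 103 and 93.0 from 39.5 and 43.7 (1.23 ± 0.22, adjusted p = 0.00267), which also held. MAVS, the adaptor of RIG-I and MDA5, rose to 516 and 508 from 327 and 339 (0.62 ± 0.19, adjusted p = 0.0391), a call lost without any TC shZZZ3, YT shNT or YT shYEATS2 library (adjusted p up to 0.181). In YT shZZZ3 only MYD88 was called, at 87.0 and 64.9 CPM (0.87 ± 0.22, adjusted p = 0.0282). That was lost without any TC shZZZ3 or YT shNT library or YT shZZZ3 replicate 1 (up to 0.179). In YT shNT against TC shNT, IFI16, a DNA sensor, was higher at 219.8 and 205 against 84.3 and 117 CPM (1.07 ± 0.21, adjusted p = 0.00949) and MYD88 lower (-0.77 ± 0.22, adjusted p = 0.0492). The IFI16 call ended without TC shNT replicate 1 or either YT shNT library (up to 0.0919), and the MYD88 call without TC shNT replicate 1 or any TC shZZZ3, YT shNT or YT shYEATS2 library (up to 0.245). The shYEATS2 effect differed between the lines for TLR3 (-2.17 ± 0.45, adjusted p = 0.0105) and MYD88 (1.31 ± 0.31, adjusted p = 0.0213). TLR3 lost that without YT shNT replicate 1 or either YT shYEATS2 library (up to 0.0677), and MYD88 without TC shYEATS2 replicate 1 or any YT shNT or YT shYEATS2 library (up to 0.0855).

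Of 7 negative regulators, all tested, SOCS3, a feedback inhibitor of JAK kinases, was called in 3 comparisons. Of all genes, 20.7% were called in YT shYEATS2, 10.0% in YT shZZZ3, 9.23% between the controls and 4.32% in the shZZZ3 difference. SOCS3 read 22.9 and 15.9 CPM in YT shZZZ3 against 42.9 and 56.9 in YT shNT (-1.36 ± 0.34, adjusted p = 0.0267). YT shNT lay above the 25.1 and 16.1 CPM of TC shNT (1.28 ± 0.34, adjusted p = 0.0378), and the shZZZ3 effect differed between the lines by -2.13 ± 0.48 (adjusted p = 0.0282). All 3 calls ended without either YT shNT library, among others, with adjusted p up to 0.198, 0.246 and 0.140. The phosphatase PTPN6 was also called higher in YT shYEATS2 (adjusted p = 0.0318), from 0 and 2 counts in YT shNT to 15 and 11, and this was lost without YT shNT replicate 1 or either YT shYEATS2 library (up to 0.202).

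Of 14 class I antigen presentation genes listed, 13 were tested, and 0 were called higher and 3 lower in YT shYEATS2, beside 20.7% of all genes, with 0 higher and 2 lower under shZZZ3, beside 10.0%. The medians were -0.31 and -0.34, and in TC they were 0.03 and 0.15 with 0 called. Of all genes, 0.0434% and 1.53% were called in TC, 9.23% between the controls and 9.37% in the shYEATS2 difference. HLA-B fell to 56.2 and 53.7 CPM under shYEATS2 and to 74.7 and 57.2 under shZZZ3 from 118 and 136 (-1.21 ± 0.26, adjusted p = 0.00721, and -0.95 ± 0.26, adjusted p = 0.0382). HLA-F fell to 14.1 and 14.2 from 34.5 and 32.0 under shYEATS2 (-1.23 ± 0.34, adjusted p = 0.0253), as did ERAP1, which trims peptides, to 122 and 124 from 226 and 218 (-0.85 ± 0.23, adjusted p = 0.0254). B2M, the shared light chain, fell to 369 and 389 from 619 and 687 under shZZZ3 (-0.79 ± 0.18, adjusted p = 0.0157), and its YT shNT level exceeded the 344 and 377 of TC shNT (0.86 ± 0.18, adjusted p = 0.0105). The shYEATS2 effect on HLA-B differed between the lines by -1.40 ± 0.36 (adjusted p = 0.0330). HLA genes are alike and polymorphic, so reads can be lost or shared. HLA-C read only 0.854 to 2.70 CPM and TAP2 at most 0.321.

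These class I calls each depended on single libraries. In YT shYEATS2, ERAP1 and HLA-F lost the call without any YT shNT or YT shYEATS2 library (adjusted p up to 0.145 and 0.138) and HLA-B without YT shNT replicate 2 or either YT shYEATS2 library (up to 0.0691). In YT shZZZ3, HLA-B lost it without any TC shZZZ3 or YT library (up to 0.232) and B2M without either YT shNT library or YT shZZZ3 replicate 1 (up to 0.150). Between the controls B2M lost it without TC shNT replicate 1 or either YT shNT library, and with the GC trend removed or only its groups fitted (up to 0.118). The HLA-B difference between lines was lost without TC shYEATS2 replicate 1 or any TC shZZZ3, YT shNT or YT shYEATS2 library (up to 0.129).

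Among 11 genes led by interferon gamma, 9 were tested. Of all genes, 20.7% were called in YT shYEATS2, 10.0% in YT shZZZ3, 1.53% in TC shZZZ3 and 9.23% between the controls. The shares for the shYEATS2 and shZZZ3 differences between the lines were 9.37% and 4.32%. WARS, the tryptophanyl-tRNA synthetase, which amino acid shortage also induces, was the strongest. It read 1022 and 1125 CPM in YT shNT, 251 and 203 in TC shNT (2.24 ± 0.31, adjusted p = 0.00135), 421 and 361 in YT shYEATS2 (-1.46 ± 0.31, adjusted p = 0.00665) and 309 and 161 in YT shZZZ3 (-2.19 ± 0.31, adjusted p = 0.00161). Its shYEATS2 and shZZZ3 effects differed between the lines by -2.12 ± 0.43 (adjusted p = 0.0101) and -2.50 ± 0.43 (adjusted p = 0.00911). The calls held without any library, apart from both shYEATS2 calls without YT shYEATS2 replicate 2 (adjusted p = 0.0713 and 0.0580). GBP2, a guanylate-binding GTPase, went the other way, to 37.0 and 34.1 CPM in YT shYEATS2 from 14.7 and 15.2 (1.25 ± 0.21, adjusted p = 0.00160), with a difference between the lines of 1.42 ± 0.29 (adjusted p = 0.0102, and 0.0510 without YT shNT replicate 1). GBP1, GBP3 and GBP4 were called in no comparison. IDO1, which breaks down tryptophan, fell in TC shZZZ3 to 3.86 and 4.12 CPM from 9.04 and 11.2 (-1.32 ± 0.23, adjusted p = 0.0146), and its shZZZ3 effect differed between the lines (1.53 ± 0.32, adjusted p = 0.0194). Those calls ended without either TC shZZZ3 library, and without TC shNT replicate 2 or either YT shNT library respectively (up to 0.202 and 0.108). CXCL11 also differed between the lines under shZZZ3 (adjusted p = 0.0497), from 15 counts or fewer in any library, and held in 7 of 20 other fits.

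The other 29 of the 41 were called in no comparison, and the share of all genes called in none is not given here. ISG15, the modifier itself, read 20.5 and 10.4 CPM in TC shNT and 29.8 and 24.8 under the YT control, with 39.5 and 34.9 under YT shYEATS2. OAS1 read 40.1 and 28.6 in TC shNT and 33.7 and 33.0 under the YT control, with 62.8 and 45.2 under YT shYEATS2, and OAS1 was nearest to a call there (0.69 ± 0.24, adjusted p = 0.0611) after SAMD9L (-1.45 ± 0.50, adjusted p = 0.0598). MX1 stayed within 4.97 to 7.74 CPM in all 12 libraries. Over all 41 genes, called ones included, the YT shYEATS2 libraries were the highest of the 12 for 19, 13 in replicate 1 and 6 in replicate 2. The YT shNT libraries were highest for 8 and 1. The share of all genes tested that peak in each library is not given here, so these counts are a description.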

How the data were processed

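RNA was sequenced as stranded poly(A) libraries, 12 in all. Read counts per gene were deposited by the authors in 1 table as whole numbers without normalization, on hg38, and the methods name bcbio-nextgen with both HISAT2 and Salmon. The labels name bcl2fastq. Which route gave the counts, and its strand setting, is not given in the sources used here. Library totals give the precision: the least abundant member averaged 61.6 counts.

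Counts were TMM-scaled and fitted by edgeR 4.0.16 (robust quasi-likelihood, R 4.3.3) over all 6 groups, keeping genes whose mean reached 5 counts. Log2 fold changes carry a prior count of 2, and adjusted p-values cover all 18415 genes tested. The SE is the fold change of the quasi-likelihood fit, which uses a smaller prior count, divided by the square root of F. It therefore belongs to a slightly different estimate than the printed value, which can matter at low counts. DESeq2 1.42.0, other scalings and filters, a GC spline with 4 degrees of freedom and leaving out each library were alternatives, 21 in all. Annotation came from GENCODE 44 and promoters from RefSeq (GRCh38.p14).

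The members and lists were chosen with earlier results of these data known. Members called in a comparison, and IFIT1, ISG15, MX1, OAS1, IFI27 and STAT2, are given by library. Other members are given by range or count, and pathway genes are named where called, up to 4 a list. SAMD9, SAMD9L, OASL, IRF1, DDX58, IFIH1, TRIM22 and USP18 were named after their values were seen.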

Additional observations from a re-analysis of the deposited data

Results flagged for a closer look

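For 6 genes the shYEATS2 effect differed between the lines by the test of the difference itself, the YT change minus the TC change on the log2 scale (edgeR, 2 libraries per group). IFI27 differed by -4.11 ± 0.67 (SE, adjusted p = 0.00297), with -3.14 in YT and 0.97 in TC. RSAD2 differed by -4.18 ± 0.80 (adjusted p = 0.00611), CMPK2 by -3.32 ± 0.78 (adjusted p = 0.0182) and IFIT3 by -1.50 ± 0.36 (adjusted p = 0.0230). IRF9 differed by 1.59 ± 0.43 (adjusted p = 0.0333) and ISG20 by 1.47 ± 0.37 (adjusted p = 0.0299). The differences for RSAD2, IFI27 and CMPK2 were -2.82, -3.06 and -2.01 without TC shYEATS2 replicate 1, and CMPK2 then missed the threshold (adjusted p = 0.0596).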

How the results depend on the processing

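Of 27 member calls, 4 held under all 21 alternatives: IFI27 in YT shYEATS2, between the controls and in the shYEATS2 difference between lines, and RSAD2 in that difference. None of the 27 changed sign. All 27 held with DESeq2, DESeq2 size factors, the replicate block and the GC trend removed. Without the filter 24 held (lost: HERC5 in YT shZZZ3 and MX2 there and between the controls). With library totals 23 held (lost: IFIT2 in YT shYEATS2, HERC5 in YT shZZZ3, IRF9 in the shYEATS2 difference and RSAD2 between the controls). With a mean of at least 50 counts 23 held (lost: IFIT2 and DHX58 in YT shYEATS2, IFI6 and RSAD2 between the controls). With only the groups of the contrast fitted 23 held (lost: HERC5 and MX2 in YT shZZZ3, IFI6 and MX2 between the controls). That setting also ended the calls of B2M and MYD88 in YT shZZZ3 and between the controls, of IFI16 and SOCS3 between the controls, of IDO1 in TC shZZZ3, of YEATS2 in TC shYEATS2, of ZZZ3 in YT shZZZ3 and of CXCL11 in the shZZZ3 difference. Of the 27, 6 held without YT shNT replicate 1 and 8 without YT shNT replicate 2. With 0 called in TC shYEATS2, the count was 3 without a filter on low counts and 1 with DESeq2 or the GC trend removed. In TC shZZZ3 it was 2 without the filter, against 0. In YT shYEATS2 it was 16 without the filter, 28 when only the 4 libraries were fitted and 19 with the GC trend removed, against 10. In YT shZZZ3 it was 8 with the GC trend removed, against 5. For the shYEATS2 difference it was 10 without the filter and 13 with the GC trend removed, against 6. For the shZZZ3 difference it was 6 without the filter, 5 with DESeq2, 3 when only its groups were fitted and 5 with the GC trend removed, against 0. Between the controls it was 13 with the GC trend removed, against 6. The cause was not tested. The share of all genes called under each of these settings is not given here, so the counts are a description. A rise in them is not a result about this set.

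Leaving out each library gave 0 to 2 called genes in TC shYEATS2, 0 to 0 in TC shZZZ3, 2 to 14 in YT shYEATS2, 0 to 7 in YT shZZZ3, 2 to 12 for the shYEATS2 difference, 0 to 3 for the shZZZ3 difference and 1 to 8 between the controls. These counts too are given without the share of all genes called in the same fits. In TC shYEATS2 the log2 fold change of OASL ran from -0.10 to 2.46 and that of IFI27 from -0.07 to 1.53, the lower values without replicate 1.

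The labels do not say what libraries with the same replicate number share. Replicate 1 had the larger total and the lower mitochondrial share in all 6 groups. Of 15 pairs of groups, 7 had a correlation of same-numbered deviations over 0.1, with a range of -0.438 to 0.898, so the block was kept as an alternative. With the replicate block the counts were 1 in TC shYEATS2, 0 in TC shZZZ3, 15 in YT shYEATS2, 5 in YT shZZZ3, 8 and 3 for the shYEATS2 and shZZZ3 differences and 9 between the controls. With the block and the GC trend removed they were 2, 4, 21, 11, 15, 11 and 15 in the same order. Neither row of counts is given with the share of all genes called, so they are a description. RSAD2 had 17 to 320 counts per library, and 2 libraries a group left the spread of each gene to be estimated from few values.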
